A study of Mus musculus with 30 samples.

Results

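The 8 genes described here encode the calcium channels and pumps of the endoplasmic reticulum (ER): the ryanodine receptors Ryr1, Ryr2 and Ryr3, the IP3 receptors Itpr1, Itpr2 and Itpr3, and the calcium ATPases Atp2a2 and Atp2a3. They were taken by gene symbol from the probe annotation, which gave 23 of the 46174 probes and 8 of 20589 genes. The genes were listed with earlier results of these data known. After a filter on dim probes 15 probes of 7 members remained among 22568 probes, and these 7 belong to the 13228 genes tested. Itpr1 had 1 probe, which failed the filter.

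Gene expression was measured on Illumina bead arrays in the nucleus accumbens, a region of the ventral striatum, of C57BL/6J mice. RNA came from magnetically sorted astrocytes, magnetically sorted neurons or whole tissue, taken 4 h after dexamethasone, a glucocorticoid receptor agonist given at 4 mg/kg, or after saline. With 5 arrays per preparation and agent there were 30 arrays, each of an individual mouse per the design text, which does not say whether the 3 preparations of a replicate number shared a mouse. The study asked which changes brought about through the glucocorticoid receptor belong to which cell type, and the members are described by their level in each preparation and by their change with dexamethasone.

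The ER is the main calcium store of a cell. Calcium leaves it through IP3 receptors, which open when IP3 made by phospholipase C binds them, and through ryanodine receptors, which open on calcium itself; the SERCA pumps encoded by the Atp2a genes return it to the store. Astrocytes are best known for calcium signals released through Itpr2, while neurons carry Itpr1, the ryanodine receptors and Atp2a2. Atp2a3 is known from blood cells, endothelium and epithelia.

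RefSeq promoter windows (build GRCm38.p6) were found for 5 of the 8 members, and not for Ryr3, Itpr1 and Atp2a2. Those of the 4 members with an entry that differed most between astrocytes and neurons are shown because levels are compared between preparations below. They lie at chr7:29125102-29125401, chr13:12106896-12107195 and chr6:146502174-146502473, all on the minus strand, and at chr11:72960919-72961218 on the plus strand. Each window runs from 250 bases before to 50 after the start that its table uses, which is the outer end of the RefSeq gene for Ryr2 and Atp2a3 and lies 28 bases inside it for Ryr1, 35 for Itpr2 and 302 for Itpr3. Each is written 5′ to 3′ on the gene's strand, and capitals mark GC boxes, GGGCGG or its reverse complement CCGCCC.
Ryr1: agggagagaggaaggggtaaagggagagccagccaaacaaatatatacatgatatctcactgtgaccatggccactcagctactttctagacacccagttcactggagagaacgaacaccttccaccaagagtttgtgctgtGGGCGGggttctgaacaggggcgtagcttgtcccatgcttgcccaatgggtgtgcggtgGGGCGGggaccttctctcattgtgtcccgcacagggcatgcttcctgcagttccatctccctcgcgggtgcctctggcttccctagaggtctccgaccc
Ryr2: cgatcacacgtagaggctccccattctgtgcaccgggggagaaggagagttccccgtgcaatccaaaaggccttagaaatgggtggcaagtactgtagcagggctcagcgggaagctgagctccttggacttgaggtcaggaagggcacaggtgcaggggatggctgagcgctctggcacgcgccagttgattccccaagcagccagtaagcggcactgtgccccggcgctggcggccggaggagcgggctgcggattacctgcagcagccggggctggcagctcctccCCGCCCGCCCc
Itpr2: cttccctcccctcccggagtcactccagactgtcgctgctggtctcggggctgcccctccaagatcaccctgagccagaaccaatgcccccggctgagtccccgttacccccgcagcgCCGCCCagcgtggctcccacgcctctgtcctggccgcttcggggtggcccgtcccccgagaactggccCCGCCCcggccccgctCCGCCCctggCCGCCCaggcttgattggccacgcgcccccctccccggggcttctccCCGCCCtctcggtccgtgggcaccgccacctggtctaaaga
Atp2a3: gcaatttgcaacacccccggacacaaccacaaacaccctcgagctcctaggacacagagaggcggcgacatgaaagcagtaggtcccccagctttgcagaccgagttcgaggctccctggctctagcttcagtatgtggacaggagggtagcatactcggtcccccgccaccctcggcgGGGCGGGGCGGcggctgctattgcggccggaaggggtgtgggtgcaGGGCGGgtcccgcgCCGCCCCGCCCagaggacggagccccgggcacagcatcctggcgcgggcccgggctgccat

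The windows of Ryr1 and Ryr2, both lower in astrocytes below, held 2 GC boxes each, the pair in Ryr2 overlapping, and 9 and 18 CpG dinucleotides. Those of Itpr2 and Atp2a3, both higher in astrocytes, held 5 GC boxes each, of which 4 in Atp2a3 overlap in pairs, and 26 and 25 CpG dinucleotides. Itpr3, not printed, had 1 GC box and 30 CpG dinucleotides, and it too lay higher in astrocytes than in neurons, called under dexamethasone but not under saline. Of 32851 mouse promoter windows of this length, 35.7% held a GC box on either strand, and the median held 7 CpG dinucleotides. The hexamer AGAACA of the glucocorticoid receptor element, or its reverse complement TGTTCT, was found 0 times in the 5 windows; 19.0% of all windows held it. Such matches describe these 300 bases only, and their bearing on the levels was not tested.

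The preparations were checked with marker lists. Astrocyte markers had a mean log2 level of 13.69 in saline astrocytes, 9.50 in saline neurons and 11.43 in saline tissue, and all 12 were higher in astrocytes than in neurons. Markers of medium spiny neurons, the main neurons of this region, averaged 8.70 in saline astrocytes, 12.74 in saline neurons and 11.78 in saline tissue. A list of 10 general neuron markers had a mean between 9.53 and 10.13 on the saline astrocyte arrays, between 11.90 and 12.13 on the saline neuron arrays and between 12.22 and 12.42 on the saline tissue arrays, so it was not higher in sorted neurons than in tissue. The astrocyte preparation also held microglia markers (8.97, against 6.27 in neurons and 9.55 in tissue), mural cell markers (9.06, against 6.64 in neurons and 7.77 in tissue) and oligodendrocyte markers (13.46, against 12.36 in neurons and 14.00 in tissue). The neuron preparation held blood markers (10.86, against 8.74 in astrocytes and 9.06 in tissue, all after saline) and endothelial markers (10.38, against 10.63 in astrocytes and 9.53 in tissue).

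Between 36.3% and 50.2% of probes were above background on an array. Tissue dexamethasone replicate 5 stood apart: it had the 50.2%, and its mean correlation with its own group was 0.909, against 0.948 to 0.954 for the other 4. Values without it stand beside the main results that include it.

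Every group lay at 1 fixed chip position, so position and group cannot be told apart. Nor, in bulk RNA, can fewer cells of a type and less RNA per cell. Where sorted cells are set against tissue, the effect of the sort and that of the cell type cannot be told apart.

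The ryanodine receptor genes were lower in astrocytes than in neurons, and the order of the preparations differed among them. Levels below are background-corrected, quantile-normalised log2 intensities of 1 probe per gene, listed for replicates 1 to 5, and levels of different genes are not set against each other. Ryr2, the cardiac form and a major ryanodine receptor of brain, measured 8.49, 7.30, 8.13, 6.95 and 8.0 in astrocytes after dexamethasone and 7.88, 7.95, 8.03, 7.97 and 7.93 after saline. Its neuron levels were 11.29, 11.42, 11.33, 11.36 and 11.19 after dexamethasone and 11.34, 11.23, 11.16, 11.34 and 11.03 after saline. In tissue they were 11.08, 11.41, 11.43, 11.33 and 9.92 after dexamethasone and 11.08, 11.30, 11.25, 11.35 and 11.01 after saline. No astrocyte array reached the lowest neuron or tissue array, whereas the neuron and tissue ranges overlapped. On the saline arrays the astrocyte minus neuron difference was -3.27 ± 0.11 (log2, SE, n = 5 arrays each, limma adjusted p = 3.68e-12), 9.62-fold lower. Neurons and tissue did not differ beyond their spread under saline (0.02 ± 0.11, adjusted p = 0.91, interval -0.21 to 0.25).

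Ryr3, a brain and smooth muscle form, was at background in most astrocyte arrays: it measured 5.48, 5.37, 6.04, 6.54 and 5.97 after dexamethasone and 5.54, 5.79, 6.09, 7.13 and 6.61 after saline, and replicate 4 of each agent alone was above background. In neurons the values were 11.19, 11.27, 10.94, 11.07 and 11.23 after dexamethasone and 11.24, 11.23, 11.13, 11.21 and 10.85 after saline. Tissue gave 9.95, 9.92, 9.99, 10.22 and 10.64 after dexamethasone and 9.67, 9.94, 10.15, 10.08 and 9.87 after saline. The 3 preparations did not overlap, with neurons highest, tissue between and astrocytes lowest. Under saline the fitted astrocyte minus neuron difference was -4.90 ± 0.23, with 1 of 5 astrocyte arrays above background, and the neuron minus tissue difference was 1.19 ± 0.23 (adjusted p = 5.63e-11 and 0.00127). The size of the astrocyte difference is set by the background: with an offset of 50 in place of 16 added before log2, it was -4.35. The probe passed the filter through the neuron and tissue arrays, so its lower level in astrocytes is not independent of the filter.

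Ryr1, the form of skeletal muscle, which is also found in brain, measured 7.65, 7.81, 7.43, 5.85 and 7.24 in astrocytes after dexamethasone and 8.44, 6.72, 7.40, 7.52 and 6.92 after saline, with 1 array of each agent at background. Neuron arrays gave 10.52, 10.27, 10.12, 9.88 and 9.08 after dexamethasone and 10.60, 10.28, 9.67, 9.58 and 8.94 after saline. Tissue arrays gave 8.46, 9.34, 9.06, 8.11 and 8.75 after dexamethasone and 8.58, 9.05, 8.79, 7.98 and 8.33 after saline. Neurons were again highest and did not overlap with astrocytes, but the saline astrocyte and tissue ranges overlapped, as did the neuron and tissue ranges under each agent. The saline differences were -2.42 ± 0.34 for astrocytes minus neurons, -1.14 ± 0.34 for astrocytes minus tissue and 1.27 ± 0.34 for neurons minus tissue (adjusted p = 1.06e-05, 0.00901 and 0.0098). Ryr1 and Ryr3 thus stood higher in neurons than in tissue, while Ryr2 was not called there.

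Of the IP3 receptor genes, Itpr2 had the opposite pattern. In astrocytes Itpr2 measured 12.37, 12.15, 12.09, 12.26 and 12.11 after dexamethasone and 12.41, 12.08, 12.22, 12.05 and 11.75 after saline. Neurons had 9.44, 9.48, 9.64, 10.15 and 10.02 after dexamethasone and 9.56, 9.94, 10.28, 9.82 and 10.48 after saline. Tissue had 10.65, 10.36, 10.73, 10.52 and 10.68 after dexamethasone and 10.64, 10.83, 10.69, 10.65 and 10.84 after saline. Every astrocyte array was above every array of the other preparations, and tissue was above neurons on all arrays of the same agent. Under saline astrocytes exceeded neurons by 2.09 ± 0.17 (4.25-fold, adjusted p = 1.65e-08) and tissue by 1.37 ± 0.17 (adjusted p = 3.33e-06). Neurons lay below tissue, with a difference of -0.71 ± 0.17 (adjusted p = 0.0045). The last call was lost when all detected Itpr2 probes were averaged (-0.26, adjusted p = 0.397), the further detected probes lying close to background.

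Itpr3, best known from epithelia and secretory cells, was near background throughout. Its astrocyte values were 7.70, 6.44, 7.52, 7.77 and 6.50 after dexamethasone and 6.52, 5.72, 7.47, 8.09 and 5.96 after saline, with replicates 1, 3 and 4 above background after dexamethasone and replicates 3 and 4 after saline. It was at background on all 10 neuron arrays and, apart from tissue dexamethasone replicate 5, on all tissue arrays. With 6 of 30 arrays above background, the probe passed the filter of 5 arrays through the astrocyte arrays. Its higher level in astrocytes is therefore not independent of the filter. In saline arrays the fitted Itpr3 difference was 0.78 ± 0.36 for astrocytes minus neurons, which was not called (limma adjusted p = 0.0737). For astrocytes minus tissue it was 0.89 ± 0.36 (adjusted p = 0.0464). The size of both is set by the background, since 2 of 5 astrocyte arrays and 0 of 5 arrays of each other group were above it. With the chip as a block, the comparison with neurons was called too (adjusted p = 0.0324). Itpr1, the main IP3 receptor of neurons, was represented by a single probe to a cDNA clone, which exceeded background on 1 of 30 arrays (6.92, in neuron dexamethasone replicate 4) and lay between 5.33 and 6.92. That probe gave no test, and its low signal is a bound on this probe only.

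The 2 pump genes ran in opposite directions between preparations. Atp2a2, encoding SERCA2, the pump found in nearly all cells, measured 13.26, 13.01, 13.01, 13.42 and 13.07 in astrocytes after dexamethasone and 12.97, 13.10, 13.64, 13.23 and 13.17 after saline. In neurons it was 14.76, 14.66, 14.78, 14.43 and 14.88 after dexamethasone and 14.60, 14.69, 14.56, 14.59 and 14.47 after saline. In tissue it was 14.35, 14.32, 14.47, 14.10 and 13.63 after dexamethasone and 14.19, 14.53, 14.48, 14.51 and 14.42 after saline. It was above background on all 30 arrays, and under either agent no astrocyte array reached the neuron or tissue range. Atp2a2 was lower in astrocytes, with differences of -1.36 ± 0.13 against neurons (adjusted p = 1.21e-07) and -1.21 ± 0.13 against tissue (adjusted p = 7.81e-07) under saline. Neurons and tissue were not called different under saline (0.16 ± 0.13, adjusted p = 0.417).

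Atp2a3, encoding SERCA3, measured 11.21, 10.30, 10.80, 11.07 and 10.05 in astrocytes after dexamethasone and 11.42, 9.75, 11.06, 11.04 and 10.13 after saline. Neurons gave 7.07, 7.33, 6.04, 7.89 and 8.07 after dexamethasone, replicate 3 being at background, and 7.61, 7.44, 7.29, 6.83 and 8.02 after saline. In tissue the levels were 9.50, 9.02, 9.34, 9.23 and 7.21 after dexamethasone and 8.84, 9.41, 9.36, 9.21 and 8.80 after saline. The astrocyte arrays lay above all others and the saline tissue arrays above all neuron arrays, while tissue dexamethasone replicate 5 fell within the neuron range. Under saline Atp2a3 was 9.44-fold higher in astrocytes than in neurons (3.24 ± 0.29, adjusted p = 6.83e-08), 2.94-fold higher than in tissue (1.56 ± 0.29, adjusted p = 2.78e-04), and 3.21-fold lower in neurons than in tissue (-1.68 ± 0.29, adjusted p = 4.27e-04).

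Within the astrocyte preparation Atp2a3 varied by more than 1 log2 unit, and a marker list of another cell type, picked after the values were seen, varied with it. The mean level of the 8 tested mural cell markers was 9.73, 9.12, 9.25, 9.45 and 8.50 in replicates 1 to 5 after dexamethasone and 9.62, 8.28, 9.48, 9.27 and 8.66 after saline. Within each agent, the 5 arrays had the same order for Atp2a3 and for the mural list. For Itpr3 the endothelial list, named after its values were seen like the mural list, gave 11.09, 10.27, 10.78, 11.04 and 10.43 after dexamethasone and 10.59, 10.12, 10.93, 11.03 and 10.49 after saline. Here the saline arrays had the same order for both, and replicates 1 and 4 changed places after dexamethasone. Itpr3 was above background on 2 of 5 of these arrays after saline and 3 of 5 after dexamethasone, so the rest are ordered within background. The endothelial list also came near the order of Atp2a3: replicates 1 and 4 changed places after saline, and replicates 2 and 5 after dexamethasone. The array order of the other marker lists is not given here, and the part of any of these cells in the astrocyte levels of Atp2a3 and Itpr3 was not tested. Between preparations, 6 of 8 mural markers were higher and 0 lower in astrocytes than in neurons under saline, where 27% of all genes were higher and 31.2% lower. Of that list, Pdgfrb and Rgs5 were above background on 0 of 10 neuron arrays, Tagln and Kcnj8 on 1, Des on 4, Vtn on 7 and Acta2 and Myh11 on 8. On the astrocyte arrays Acta2, Pdgfrb, Rgs5, Myh11 and Vtn were above it on all 10, Des on 9, Kcnj8 on 7 and Tagln on 4. Of 9 endothelial markers, 2 were higher and 0 lower in the same comparison, and 8 were above background on all arrays of both preparations, Kdr being above it on 5 astrocyte and 8 neuron arrays.

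**Figure D1:**
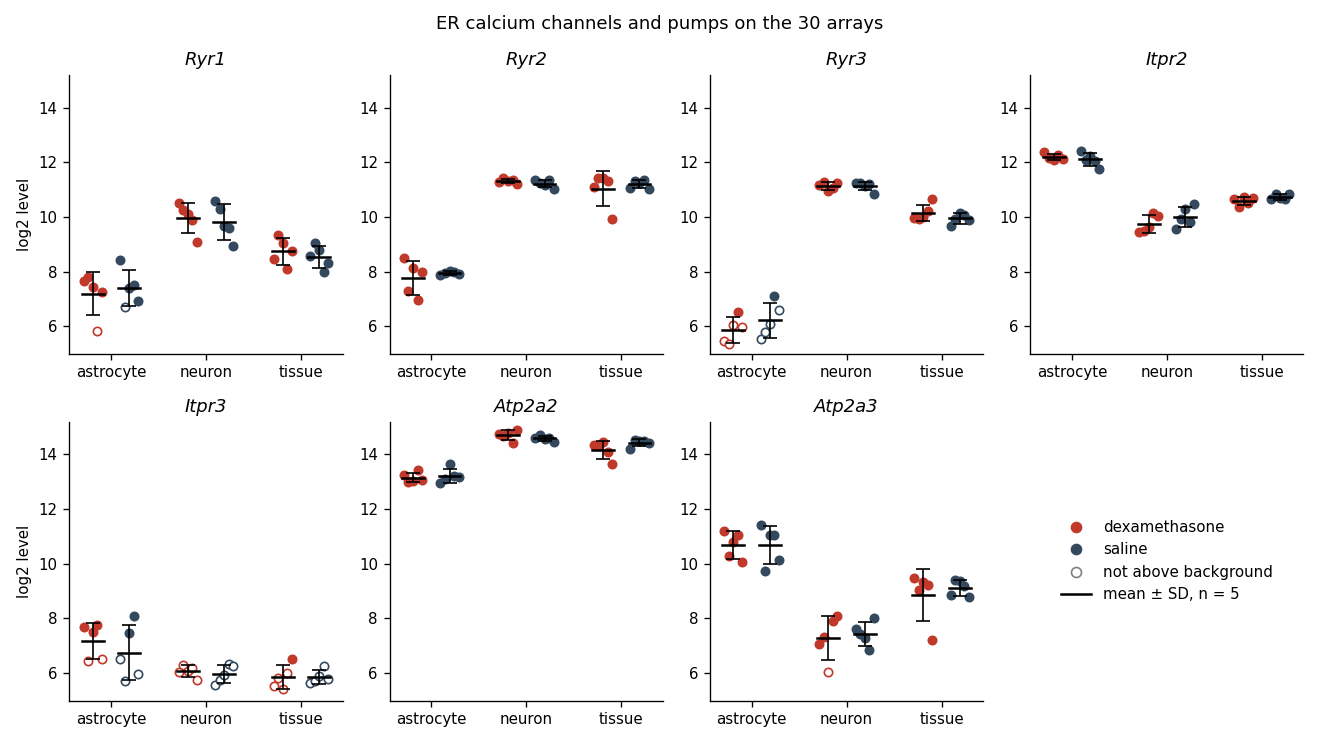
Log2 level of the 7 tested members on every array (points), with the mean and SD of each group of 5 (bars), by preparation on the x axis and agent by colour; open points are not above background. Ryr1, Ryr2, Ryr3 and Atp2a2 sit lowest in astrocytes, Itpr2 and Atp2a3 highest, and the dexamethasone and saline points of a preparation overlap for every member.

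Counted over the members, 2 of 7 were higher and 4 lower in astrocytes than in neurons on the saline arrays, Itpr3 not being called, and 6 of 7 had groups that did not overlap, as did 43.2% of all genes. The median of the 7 differences was -1.36. Of all genes tested, 58.2% were called in this comparison (27% higher and 31.2% lower), so that a call is the common outcome there and the members are described by size and direction. The dexamethasone arrays, from other mice, called all 7, with 3 higher and 4 lower in astrocytes against 53.1% of all genes (25.4% higher and 27.7% lower). None of the 7 overlapped there, where 47.9% of all genes did not. There the differences were -2.78 for Ryr1, -3.54 for Ryr2, -5.26 for Ryr3 (astrocytes above background on 1 of 5 arrays, so the size is set by the background), 2.45 for Itpr2, -1.55 for Atp2a2 and 3.41 for Atp2a3, each with the sign it had under saline. The fitted Itpr3 difference was 1.11 ± 0.28 (limma adjusted p = 0.00301), with 3 of 5 astrocyte and 0 of 5 neuron arrays above background. Its size is set by the background too. Itpr3 passed the filter through its astrocyte arrays, and Ryr3 through the neuron and tissue arrays. The direction, call and lack of overlap of both are therefore not independent of the filter.

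Against tissue, all 7 members were called in astrocytes on the saline arrays, 3 higher (Itpr2, Itpr3 and Atp2a3) and 4 lower, where 51.8% of all genes were called (24.2% higher and 27.6% lower). Itpr3 counts here although it passed the filter through its astrocyte arrays, and Ryr3 although it passed through the neuron and tissue arrays. The ranges of 5 of the 7 did not overlap there, those of Ryr1 and Itpr3 doing so, and 38% of all genes did not overlap. The dexamethasone arrays again called all 7 in the same directions, also without tissue dexamethasone replicate 5, against 46.1% of all genes (23.2% higher and 22.9% lower). The Itpr3 call on saline arrays was marginal (adjusted p = 0.0464): it was lost in 12 of 15 fits that left out 1 array (adjusted p 0.0504 to 0.127) and kept without astrocyte saline replicate 2 or 5 or tissue saline replicate 4 (0.00967 to 0.0436).

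Between neurons and tissue under saline, 2 members were higher in neurons (Ryr1 and Ryr3), 2 lower (Itpr2 and Atp2a3) and 3 not called, where 26.9% of all genes were called (11.1% higher and 15.9% lower). On the dexamethasone arrays 3 were higher and 2 lower, against 24.2% of all genes (11% higher and 13.1% lower). The addition was Atp2a2, at 0.53 ± 0.17 (adjusted p = 0.0316). With the chip as a block its adjusted p was 0.0545, and it lay between 0.0531 and 0.0743 without neuron dexamethasone replicate 1, 2, 3 or 5 or tissue dexamethasone replicate 4. Without tissue dexamethasone replicate 5 the same comparison gave 0.39 ± 0.13 for Atp2a2 (adjusted p = 0.0363), 0.00 ± 0.25 for Ryr2 and -1.99 ± 0.35 for Atp2a3, against 0.28 ± 0.30 and -1.58 ± 0.43 with it.

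**Figure D2:**
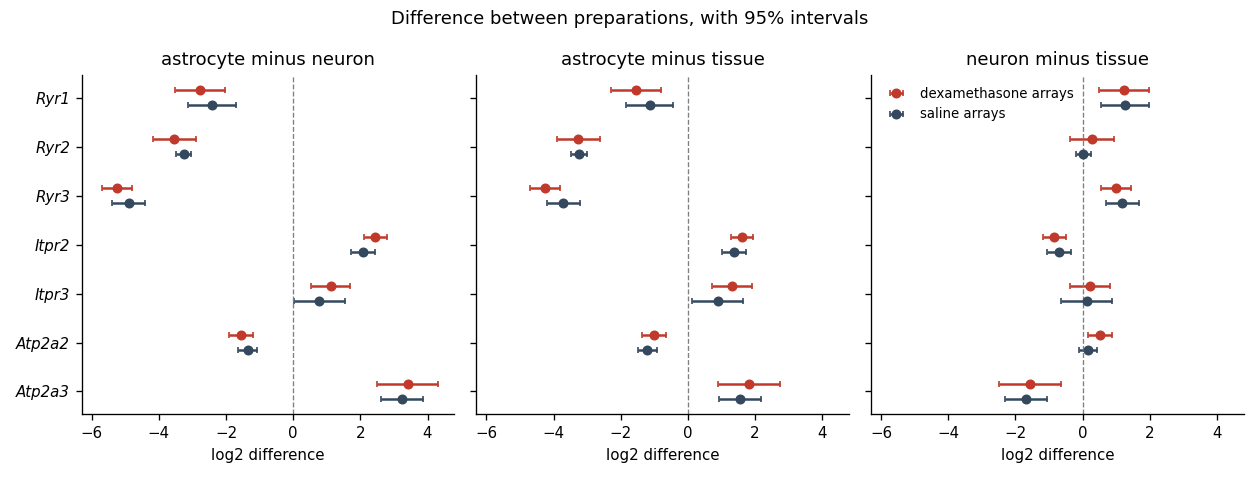
Log2 difference of each member (points) with its 95% interval (bars) for astrocytes minus neurons, astrocytes minus tissue and neurons minus tissue, on the dexamethasone arrays and on the saline arrays. Ryr1, Ryr2, Ryr3 and Atp2a2 lie left of 0 and Itpr2 and Atp2a3 right of 0 in both astrocyte panels, for both sets of arrays.

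Other probes of the same genes were compared where they were detected. For 8 further probes, the astrocyte minus neuron difference under saline had the sign of the probe used for 8 of 8, and 7 were called. For astrocytes minus tissue the counts were 8 and 6, and for neurons minus tissue 7 and 4. These further probes were fitted and adjusted among all 22568 kept probes. Of the 13228 genes, a different set of features, 58.2%, 51.8% and 26.9% were called in these comparisons. The further Ryr3 probes were above background on no astrocyte array and the further Atp2a3 probe on no neuron array. These passed the filter through the other preparations, so their sign is not independent of it. A further Itpr2 probe was above background on 5 of 30 arrays: 2 in each astrocyte group, 1 in saline tissue and 0 in neurons. It passed mainly through the astrocyte arrays, so its sign is not independent of the filter either. Another Ryr3 probe was not above background on any of the 10 astrocyte arrays and was at least 21.3-fold lower in astrocytes than in neurons under saline. This bound sets the neuron mean against the lowest detected level, or the probe's own level where higher, on each astrocyte array.

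Dexamethasone changed the level of 0 of 7 members in any preparation, at an adjusted p under 0.05 in limma. In astrocytes 1.76% of all genes were called (233 genes), in neurons 0% (0 genes) and in tissue 0.0378% (5 genes); against these shares, 0 of 7 is no result particular to the members. At an unadjusted p under 0.05 there were 1342 genes in astrocytes, 932 in neurons and 752 in tissue, and the smallest unadjusted p of a member was 0.288 in astrocytes, 0.21 in neurons and 0.187 in tissue. Fkbp5, a co-chaperone of the glucocorticoid receptor, rose by 3.87 ± 0.24 in astrocytes (adjusted p = 2.48e-05) and by 1.12 ± 0.14 in tissue (adjusted p = 0.0203). In neurons its difference was 0.63 ± 0.19 and was not called (adjusted p = 0.485). Of 12 known glucocorticoid targets, a list chosen with earlier results of these data known, 11 rose in astrocytes, 0 in neurons and 3 in tissue.

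Intervals show which sizes the arrays leave possible. Itpr2, the IP3 receptor best known from astrocytes, averaged 12.20 ± 0.12 after dexamethasone and 12.10 ± 0.24 after saline in astrocytes (SD, n = 5 each), a difference of 0.09 ± 0.14 (SE) with a 95% interval of -0.22 to 0.40. Atp2a2 averaged 13.15 ± 0.18 after dexamethasone and 13.22 ± 0.25 after saline there, and its interval was -0.40 to 0.27. Wider were those of Ryr2 (-0.75 to 0.39), Atp2a3 (-0.74 to 0.75), Ryr1 (-1.09 to 0.68) and the dim genes Ryr3 (-1.05 to 0.34) and Itpr3 (-0.59 to 1.46). A change of 1 log2 unit lay inside the interval of Ryr1, Ryr3 and Itpr3 in at least 1 direction and outside that of the other 4 members.

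In neurons the intervals were narrow for Ryr2 (-0.12 to 0.32), Ryr3 (-0.24 to 0.26) and Atp2a2 (-0.12 to 0.36), whose differences were 0.10 ± 0.10, 0.01 ± 0.11 and 0.12 ± 0.11. They were wider for Ryr1 (-0.58 to 0.89), Itpr2 (-0.72 to 0.18), Atp2a3 (-0.95 to 0.63) and Itpr3 (-0.28 to 0.48), the last at background on all neuron arrays. Ryr1 differed by 0.16 ± 0.33 and Itpr2 by -0.27 ± 0.20, Itpr2 being 9.75 ± 0.32 after dexamethasone and 10.02 ± 0.36 after saline, in groups that overlapped. In the same neuron arrays the mean of the astrocyte markers was 8.65 ± 0.32 after dexamethasone, against 9.50 ± 0.46 after saline. The oligodendrocyte list averaged 11.81 after dexamethasone, against 12.36 after saline, the mural list 6.24 after dexamethasone, against 6.64 after saline, the endothelial list 10.08, against 10.38 after saline, and the microglia list 6.04, against 6.27 after saline. Of these 5 lists 0 genes were called with dexamethasone in neurons, where 0 of all 13228 genes were. Other lists differed less: oligodendrocyte precursor markers averaged 7.66 after dexamethasone, against 7.72 after saline, and blood markers 10.82, against 10.86. Choroid plexus and ependymal markers averaged 8.31 after dexamethasone, against 8.34 after saline. The part of other cells in the Itpr2 value was not tested.

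In tissue the differences lay between -0.26 ± 0.38 for Atp2a3 and 0.20 ± 0.18 for Ryr3. The narrowest interval was that of Itpr2 (-0.45 to 0.16) and the widest that of Atp2a3 (-1.09 to 0.56). Without tissue dexamethasone replicate 5 the differences lay between -0.16 ± 0.12 for Itpr2 and 0.20 ± 0.28 for Ryr1, and 0 of 7 were called. Atp2a3 was then 0.15 ± 0.17 and Ryr3 0.08 ± 0.13. Ryr2 was 0.12 ± 0.13 (with it -0.16 ± 0.27) and Atp2a2 -0.12 ± 0.12 (with it -0.25 ± 0.18).

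Averaged over the 3 preparations, the dexamethasone difference of the members lay between -0.14 ± 0.22 for Atp2a3 and 0.18 ± 0.19 for Itpr3, with 0 of 7 called, against 2.15% of all genes. Without tissue dexamethasone replicate 5 the differences lay between -0.11 ± 0.09 for Itpr2 and 0.12 ± 0.19 for Itpr3, with Atp2a3 at -0.00197 ± 0.19. The responses of the preparations were also compared with each other, which asks directly whether a member responded in one preparation and not in another. For astrocytes minus neurons, astrocytes minus tissue and neurons minus tissue, 0 of 7 members were called, where 0.832%, 0.355% and 0.0529% of all genes were. The smallest unadjusted p among these 21 member tests was 0.0793, for Atp2a2 in neurons minus tissue (0.37 ± 0.20, adjusted p = 0.983). Without tissue dexamethasone replicate 5 that difference was 0.23 ± 0.17, and 0 of 7 members were called in any of these comparisons.

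**Figure D3:**
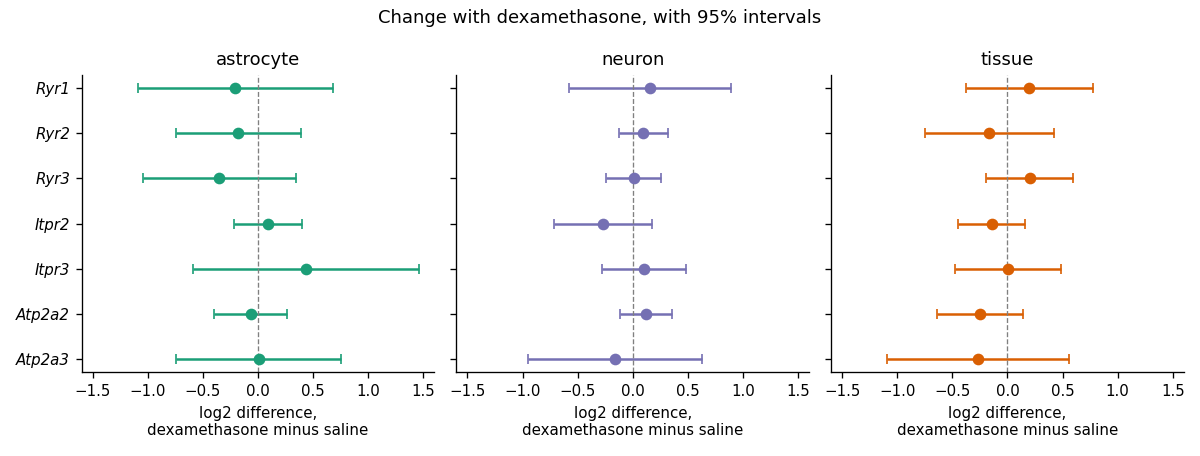
Log2 difference, dexamethasone minus saline, of each member (points) with its 95% interval (bars) in astrocytes, neurons and tissue. All 21 intervals include 0; in astrocytes Itpr2 and Atp2a2 have the narrowest and Itpr3 the widest.

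For some members much of the spread lay between chips. The 6 arrays of a replicate number shared 1 chip, per the labels. In neurons Ryr1 was 10.52 after dexamethasone and 10.60 after saline on the chip of replicate 1, and 9.08 after dexamethasone and 8.94 after saline on that of replicate 5, the order of the 5 chips being the same for both agents. With the chip as a block, the standard error of the Ryr1 difference in neurons was 0.12, against 0.33 without it, and the interval was -0.12 to 0.43. For Atp2a3 in astrocytes it was 0.15, against 0.34, with an interval of -0.36 to 0.37. For Itpr3 in astrocytes it was 0.22, against 0.47. With the block 0 of 7 members were called with dexamethasone in any preparation. Ryr3 in astrocytes had a blocked interval that excluded 0 (-0.69 to -0.01, adjusted p = 0.391) at a level that was at background on 8 of 10 arrays.

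**Figure D4:**
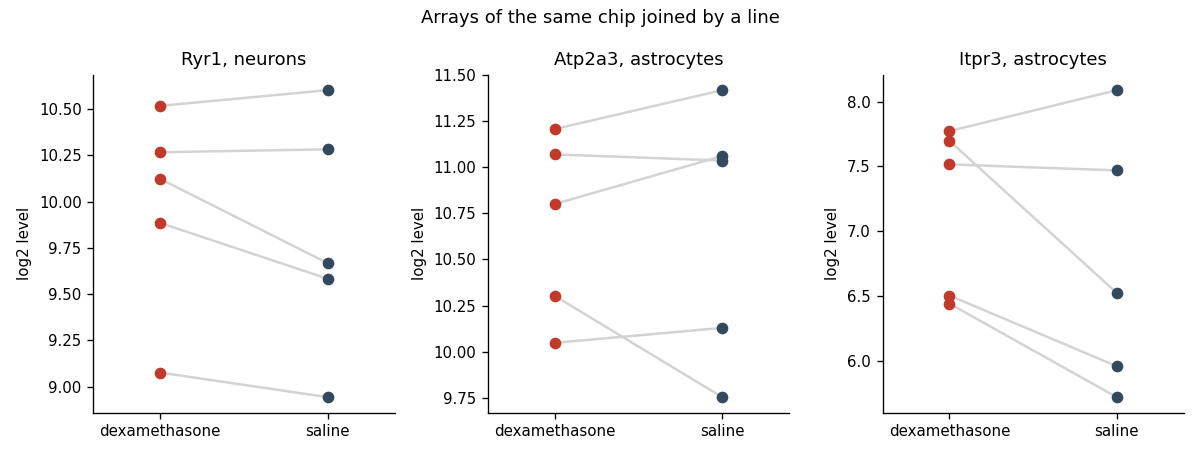
Log2 level of Ryr1 in neurons, Atp2a3 in astrocytes and Itpr3 in astrocytes after dexamethasone (left of each panel) and after saline (right), with a line joining the arrays of 1 chip; the y axes start above 0 and differ between panels. Ryr1 keeps the same order of the 5 chips for both agents.

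Other genes of calcium handling were counted from 6 lists holding 90 genes, of which 69 were tested. The lists cover the ER and also other membranes and mitochondria. In astrocytes against neurons on the saline arrays, 25 were higher, 26 lower and 18 not called; 73.9% were called, against 58.2% of all genes. The median differences below stand beside a median of -0.08 over all genes tested.

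Channel and pump partners, proteins that bind or anchor the members, had 7 of 19 higher and 8 lower (median -0.29). Homer1, a scaffold that links IP3 receptors to glutamate receptors, was lower in astrocytes (-2.57 ± 0.22), and Mrvi1, a partner of the IP3 receptor in smooth muscle (2.34 ± 0.24), Asph, whose locus encodes junctin (2.19 ± 0.25), and Tmem38b, an ER potassium channel (2.01 ± 0.16), were higher. Proteins of the ER lumen and its membrane had 6 of 10 higher and 0 lower (median 0.59), among them Calu, a calcium-binding protein (1.49 ± 0.13), Tmbim6, an ER membrane protein (1.42 ± 0.10), and Pdia4, a folding enzyme (1.34 ± 0.16).

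Store-operated entry, which refills the ER from outside the cell, had 4 of 7 genes higher and 3 lower in astrocytes (median 1.03). The channel genes Orai1 (2.30 ± 0.19) and Orai3 (1.86 ± 0.21) were higher, and Stim2, an ER calcium sensor (-1.54 ± 0.19), and Trpc1, a cation channel (-1.38 ± 0.31), were lower. The makers and breakers of IP3 had 6 of 16 higher and 6 lower (median 0.23). The phospholipase genes Plcd4 (4.20 ± 0.26) and Plcd1 (3.33 ± 0.27) and Itpkb, an IP3 kinase (3.58 ± 0.23), were higher, and Grm5, a glutamate receptor that signals through IP3 (-3.68 ± 0.38), was lower. Pumps and exchangers of other membranes had 0 of 8 higher and 6 lower (median -1.36): the sodium and calcium exchanger Slc8a2 (-3.48 ± 0.28) and the plasma membrane pumps Atp2b1 (-3.20 ± 0.22), Atp2b2 (-2.08 ± 0.21) and Atp2b3 (-1.80 ± 0.19) were all lower in astrocytes, as was Atp2a2. Of the mitochondrial genes 2 of 9 were higher and 3 lower (median 0.14), with Slc8b1, the mitochondrial sodium and calcium exchanger, higher (4.36 ± 0.21) and Micu3, a regulator of the uniporter, lower (-1.98 ± 0.26).

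**Figure D5:**
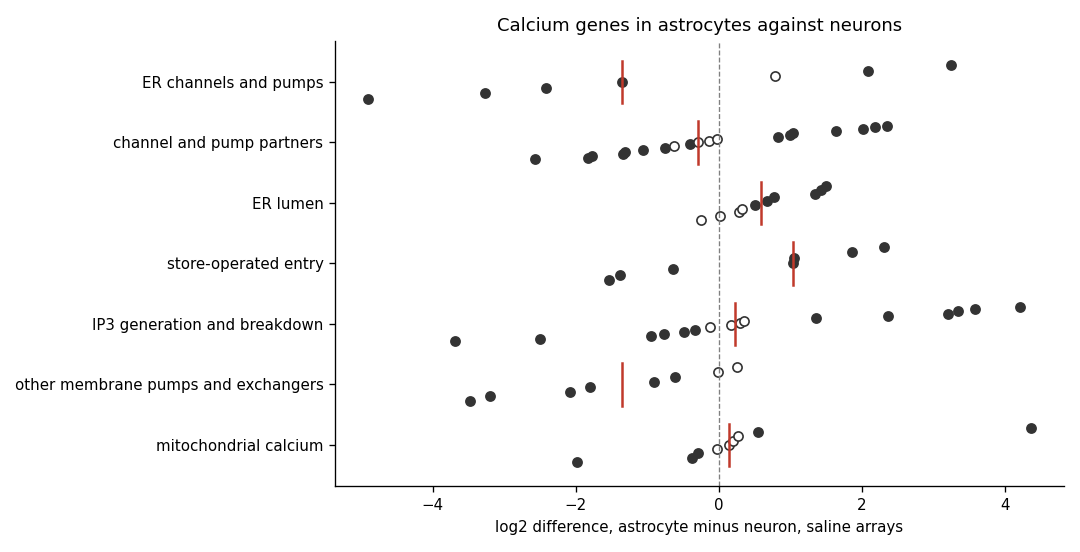
Log2 difference, astrocytes minus neurons on the saline arrays, of the members (top row) and of the tested genes of the 6 lists (points; filled where called, open where not), with the median of each row as a vertical bar. Points of the ER lumen row lie mostly right of 0 and those of the other membrane pumps and exchangers mostly left of it.

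On the dexamethasone arrays the astrocyte minus neuron counts were 24 higher and 19 lower (62.3%, against 53.1% of all genes). Under saline the same 69 genes gave 28 higher and 22 lower in astrocytes against tissue (72.5% called, against 51.8% of all genes) and 8 higher and 14 lower in neurons against tissue (31.9%, against 26.9%). With dexamethasone, 1 of 69 fell in astrocytes and 0 rose, which is 1.45%, near the 1.76% of all genes: Slc8b1 fell by 1.28 ± 0.15 on the log2 scale (SE, adjusted p = 0.00164). In neurons and in tissue 0 of 69 rose or fell.

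The genes whose levels followed each member most closely over the 30 arrays were taken by Pearson's r. The points share 3 preparations, so r reflects the preparation differences above, and it is given as a description. For Ryr1 they were Spna2 (0.94), Crocc (0.92), Atp2b2 (0.92), for Ryr2 Cacnb4 (0.99), Gtl2 (0.98), Acsl5 (0.98) and for Ryr3 Actn2 (0.99), Sertad4 (0.99), Gpr83 (0.99). Those of Itpr2 were Rhbdf1 (0.98), Slc48a1 (0.98), Denn2b (0.98), and those of Itpr3 Apold1 (0.90), Myof (0.85), Tm4sf1 (0.85). Atp2a2 was followed by Adam23 (0.98), Runx1t1 (0.97), Actn1 (0.97) and Atp2a3 by Hspb8 (0.96), Pmp22 (0.96), Sspn (0.95).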

How the data were processed

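RNA of magnetically sorted astrocytes, sorted neurons or tissue was hybridised to Illumina bead arrays. Biotin-labelled cRNA was made from column-purified RNA, per the labels' protocols. The authors deposited log2 intensities of 46174 probes, not normalised between arrays and without detection p-values, and a value table on a log2 scale of unstated making. That table equalled the log2 of the quantile-normalised log2 intensities (largest difference 5e-10, median 2.99), which compresses folds, and served as an alternative only. Not given in the sources used here: scanner software, background step, authors' test.

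As negative controls, 1588 probes of chemosensory receptor genes were used (olfactory, vomeronasal, taste and trace amine families). Intensities were corrected by limma's normexp model on them (offset 16), quantile-normalised over 30 arrays and taken to log2. A probe counted as above background where fewer than 0.05 of those control probes were as bright on the array. Control probes were removed, leaving 44586 probes, and the 22568 above background on 5 or more arrays were kept. Symbols were updated through RefSeq (28566 probes by Entrez ID, 2632 by accession, 4527 kept, 10449 unnamed, 0 with several genes). The brightest probe by mean level represented each of 13228 genes.

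Tests were two-sided, in R 4.3.3 with limma 3.58.1 (lmFit, eBayes, Benjamini-Hochberg adjustment over 13228 genes, called at an adjusted p under 0.05). Further probes were adjusted over the 22568 kept probes. The tests were run on simulated data with known dexamethasone changes. A change of 1 log2 unit was called for 55 of 100 genes in astrocytes, 54 in neurons and 60 in tissue. For 2 log2 units the counts were 97, 99 and 97. Dexamethasone was compared with saline on the 10 arrays of a preparation, preparations on the 15 arrays of an agent, and differences between responses on all 30 arrays. Samples were grouped by their labels. Intervals are 95% intervals of the fit, and the number of arrays limits the precision. The 8 members were all named. Of each other pathway list up to 4 called genes with the largest absolute difference in a comparison were eligible for naming, and for each member the 3 genes with the highest Pearson r over 30 arrays. The members and lists were chosen with earlier results of these data known.

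Arrays of a replicate number share a chip, a pairing taken from the labels. Deviations of the 2 same-chip arrays from their group means had an average correlation of 0.19 for astrocyte arrays, 0.18 for neuron arrays and 0.05 for tissue arrays, the lowest pairs reaching -0.04, 0.07 and -0.13. Alternatives covered background, offset, normalisation, filter, probe choice, chip block, array weights, the deposited value table, a fit over all arrays and leaving out each array.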

Additional observations from a re-analysis of the deposited data

Results flagged for a closer look

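Single arrays lay far from the other 4 of their group for 3 member values, by a gap that Dixon's criterion calls an outlier; chance alone gives such a gap in about 1 of 20 groups, and 7 members in 6 groups were examined. In tissue after dexamethasone, replicate 5 had a Ryr2 level of 9.92 and an Atp2a3 level of 7.21, both below the rest of the group. It is the array with the highest share of probes above background. In astrocytes after dexamethasone, replicate 4 had a Ryr1 level of 5.85, which is not above background. The part of array quality or cell make-up in these values was not tested.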

How the results depend on the processing

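Between preparations, 36 member differences were called. They kept their call in 424 of 429 fits under other settings and in 522 of 540 fits that left out 1 array, and 0 changed sign. The 5 changes were Itpr3, astrocytes minus tissue under saline, without a detection filter (adjusted p = 0.0673) and with array weights (0.134); Atp2a2, neurons minus tissue under dexamethasone, with the replicate block (0.0545); and Itpr2, neurons minus tissue, with the mean of a gene's probes (-0.26 under saline, 0.397, and -0.40 under dexamethasone, 0.121). Of the 18 left-out changes, 12 were Itpr3, 5 Atp2a2 and 1 Ryr1, neurons minus tissue under dexamethasone without neuron dexamethasone replicate 1 (0.0517). Itpr3, astrocytes minus neurons under saline, was called with the chip as a block (0.0324), with all 30 arrays in the fit (0.0493), and without astrocyte saline replicate 2 (0.0157) or 5 (0.0305). The 28 dexamethasone differences were never called in 325 and 420 such fits (lowest adjusted p 0.388 and 0.607). The block changed no other member call. Members called in neurons minus tissue under dexamethasone numbered 3 to 5 when 1 array was left out.

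Counts over all genes moved more. In astrocytes after dexamethasone 233 genes were called, 148 with median centring, 369 with all 30 arrays in the fit, and 133 to 227 with 1 array left out. In neurons the counts were 0, 10 with median centring, 52 with all arrays and 0 to 32 with 1 left out. In tissue they were 5, then 8 without background correction and with the deposited value table, 9 with an offset of 50 and with detection on all arrays of a group, 0 with median centring, 2 with the replicate block, 24 with array weights, 13 with all arrays and 1 to 14 with 1 left out. Over the 3 preparations 285 became 153 with median centring, 543 with array weights and 240 to 371 with 1 left out. The astrocyte minus neuron response gave 110, 254 with array weights and 84 to 167 with 1 left out. The astrocyte minus tissue response gave 47, 75 without background correction and with the deposited table, and 20 to 58 with 1 left out. The neuron minus tissue response gave 7, 0 with median centring, 1 without a filter, 36 with array weights and 1 to 27 with 1 left out. Neurons minus tissue under dexamethasone gave 3197, 2068 with median centring and 2624 to 4045 with 1 left out. The cause of these shifts was not tested. Probes near background limit Itpr1, Itpr3 and the astrocyte level of Ryr3.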
